A study of Mus musculus with 6 samples.

Results

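The MYC, MAX and MXD network is a family of transcription factors that share MAX, or the related protein MLX, as a dimer partner. The 9 genes described here (Myc, Max, Mxd1, Mxd3, Mxd4, Mxi1, Mnt, Mga and Mlx) were chosen by name from the 25033 gene symbols of the deposited tables, and 9 of 9 passed the filter on low counts that left 12978 genes for testing. The study profiled green fluorescent (GFP+) cells sorted from marrow of C57BL/6J animals, 6 months of age, that were recipients of haematopoietic stem cells (HSCs). The recipients of the control group (3 libraries) got HSCs exposed to control RNA, and those of the inhibitor group (3 libraries) got HSCs exposed to the inhibitor of the microRNA miR-31-5p. MicroRNAs repress transcripts that pair with their seed. Both groups therefore consist of transplanted, GFP-marked, sorted cells, and the interval between treatment and sorting is not given in the sources used here.

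MYC binds DNA as a dimer with MAX, at the E-box motif CACGTG, and raises transcription of genes for ribosome production, nucleotide and polyamine synthesis and cell cycle entry. MXD1, MXD3, MXD4 and MXI1 compete with MYC for MAX and bring the SIN3 histone deacetylase complex to the same motif, as does MNT, while MGA with MAX belongs to a variant Polycomb complex. MLX pairs with some of these repressors and, in separate dimers, with the glucose-sensing factors MondoA (gene Mlxip) and ChREBP (gene Mlxipl). In blood formation MYC is known for driving the growth and division of progenitors, and MXD1 for rising as myeloid cells mature.

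Total counts ran from 16873188 to 21245861 per library, and 3 counts, the number taken as the detection limit, corresponded to 0.141 to 0.178 CPM (counts scaled to library size). Levels below are TMM-normalised CPM. Each change is a log2 difference, inhibitor minus control, with its standard error (SE), and adjusted p-values come from the quasi-likelihood test of edgeR, adjusted by Benjamini and Hochberg's method over all 12978 genes. Where 3 values follow each other they are those of the libraries numbered 1, 2 and 3 of the group. The precursor ribosomal RNA gene Rn45s varied among the controls (20039, 3667 and 61656 counts) and was lower in each inhibitor library (1784 to 3145 counts), and its part in the results was not tested. Whether libraries of a group come from separate animals is not stated, so the spread that the p-values measure is that between these libraries alone and may be technical. The labels call the cells HSCs. Kit, Cd34 and Flt3, which progenitors later than HSCs express, were at 401.9, 362.8 and 191.3 CPM in the control group. The HSC markers Procr and Mecom were at 1.06 and 0.64 CPM there (7.55 and 0.38 CPM in the inhibitor group). The myeloid granule gene Mpo was at 5202 CPM. In such bulk libraries a smaller share of cells of one type and less RNA per cell cannot be told apart.

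Sequence features of the network were read from RefSeq (GRCm38.p6, the same assembly as mm10) before the levels are given. Promoter windows of 300 bases around the start site (250 before it and 50 after) were matched for 8 of the 9 genes, all but Myc, in 10 windows. The letters CACGTG read the same on both strands. They stood in 4 of those 10 windows and in 1308 of 13203 windows of all tested genes (9.91%). In the whole table, 2349 of 32851 windows of that length held them (7.15%). The stretches below show the E-box that MYC-MAX and MXD-MAX dimers recognise, in the promoters of 4 of the network's own genes, with the motif in capitals and its first base counted from the start site (-1 is the base before it).
Max (chr12:76962234-76962263, minus strand, motif at -3): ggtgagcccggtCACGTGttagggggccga
Mxd4 (chr5:34187912-34187941, minus strand, motif at -219): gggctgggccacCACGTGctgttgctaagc
Mnt (chr11:74830789-74830818, plus strand, motif at -123): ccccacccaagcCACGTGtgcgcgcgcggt
Mlx (chr11:101087238-101087267, plus strand, motif at -40): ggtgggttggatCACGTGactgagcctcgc
The windows of Mxd1, Mxd3, Mxi1 and Mga did not hold these letters.

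The microRNA that was inhibited and the places where its seed can pair with transcripts of the network are shown next. The mature sequence is from chr4:88910614-88910635, minus strand, with its seed (bases 2 to 8) in capitals, and the matching letters TCTTGCC are in capitals within each gene's longest 3′ UTR (GENCODE M21, also mm10).
miR-31-5p: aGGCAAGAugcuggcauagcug
Mxd1 (chr6:86647980-86648009, minus strand): gactttctcccTCTTGCCttcttccctgcc
Mnt (chr11:74843561-74843590, plus strand): ttggtggacatTCTTGCCtacccagcctgg
Mga (chr2:119965199-119965228, plus strand): gtgtgattcccTCTTGCCcaaggaattcat
Mlx (chr11:101091779-101091808, plus strand): gtcccatcagcTCTTGCCctgtcttcccaa
Each of these 4 genes held 1 such match, none of them followed by the A that makes an 8-base site, and the other 5 genes held none. The 3′ UTRs of the 4 genes ran from 1042 (Mlx) to 4616 bases (Mga), and those of the other 5 from 442 (Myc) to 3105 (Mxd4). Among all tested genes with a 3′ UTR, 1553 of 12280 (12.6%) held the 7 letters, with no matching for length. The share was 14.6% of the genes called higher, 11.7% of those called lower and 12.3% of those not called. A match of letters is not evidence of binding.

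In the inhibitor group the activator Myc and the shared partner Max were lower, the repressors Mxd1, Mxi1 and Mxd4 were higher, and the repressor Mnt and the alternative partner Mlx were lower. Of the 9 genes, 3 were called higher and 4 lower at an adjusted p of 0.05, and Mxd3 and Mga did not pass. Across all 12978 tested genes 40.5% were called in either direction, 20.4% higher and 20.1% lower. After a correction for GC content and transcript length, 2326 genes were called higher and 4106 lower, against 2646 and 2613 without it, and the same 7 members were called. The groups did not overlap for 7 of the 9 genes, and for 52.4% of all tested genes. The median change of the 9 genes was -0.02, against -0.01 for all tested genes.

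**Figure D1:**
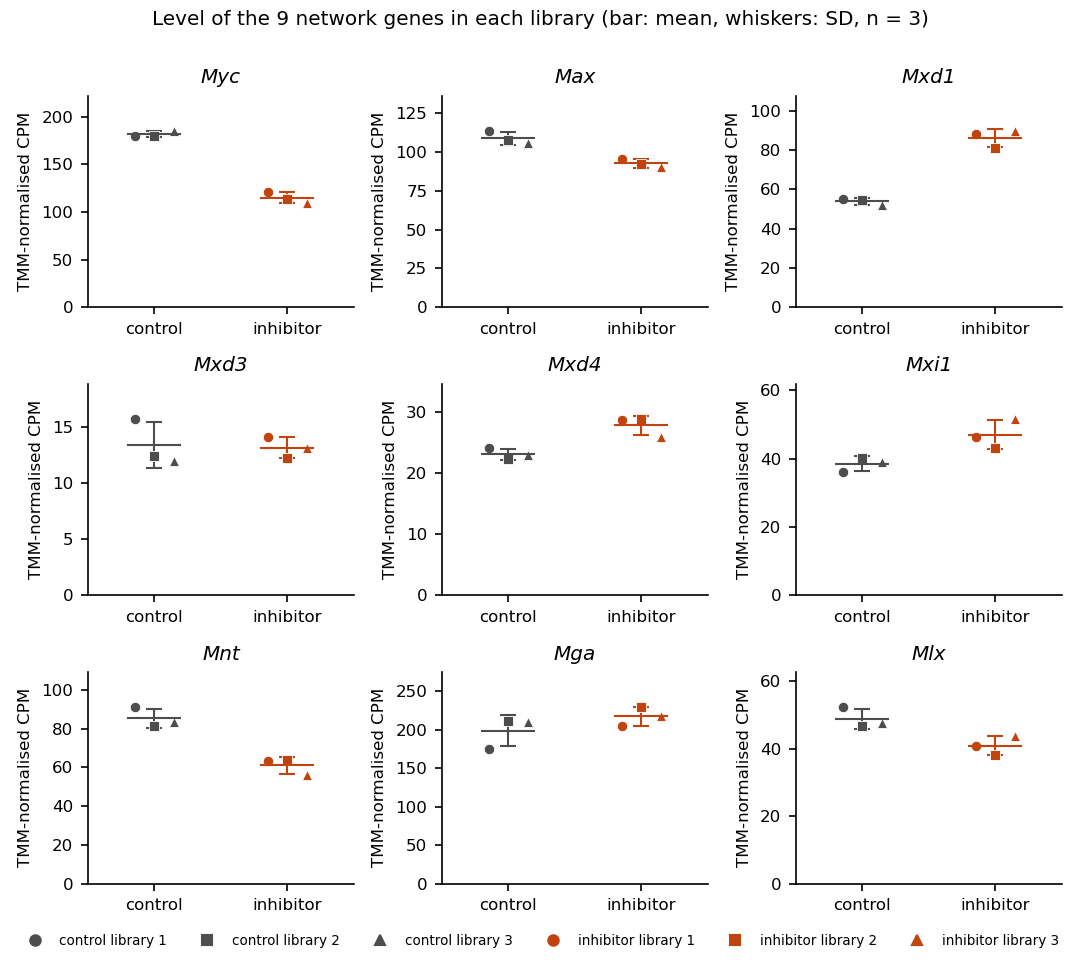
TMM-normalised CPM of each of the 9 genes in each library, 1 panel per gene, with its own linear axis from 0. Points are libraries, horizontal bars group means and whiskers SD (n = 3). For Myc, Max, Mnt and Mlx every inhibitor library lies below every control library, for Mxd1, Mxd4 and Mxi1 above, and for Mxd3 and Mga the groups overlap.

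Myc encodes the activating member of the network (chromosome 15, 61985341 to 61990361). Its level was 180.1, 180.2 and 185.3 CPM in the controls and 121.1, 113.7 and 109.6 CPM in the inhibitor libraries, from 1856 to 3941 counts per library. The controls lay within a narrow band and each inhibitor library was far below it. The mean went from 181.8 ± 2.98 to 114.8 ± 5.83 CPM (SD, n = 3 per group), a fall of 1.58-fold, or a log2 change of -0.66 ± 0.06 (edgeR adjusted p = 2.08e-07). The change ran from -0.70 to -0.63 over 15 alternative analyses and kept its call in each.

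Max encodes the obligate partner of MYC, the MXD proteins, MNT and MGA (chromosome 12, 76937269 to 76962323). Its level was 113.5, 107.3 and 105.7 CPM in the controls and 95.5, 92.3 and 89.98 CPM in the inhibitor libraries. The groups did not overlap, and the gap between them was only slightly wider than the range of the controls. The mean fell from 108.8 ± 4.12 to 92.6 ± 2.76 CPM, a log2 change of -0.23 ± 0.06 (edgeR adjusted p = 0.00487), called in all 15 alternatives (-0.26 to -0.20). The fall of Max was thus smaller than that of Myc in log2 units, and the ratio of their levels is given below per length.

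The other MYC family genes were measured beside them. Mycl, which encodes L-MYC (chromosome 4, 122995588 to 123002490), had 27.1, 32.3 and 25.6 CPM in the controls and 46.8, 48.3 and 50.7 CPM in the inhibitor libraries. It thus rose while Myc fell, by 0.78 ± 0.09 (edgeR adjusted p = 5.77e-06), and kept its call in all 15 alternatives (0.58 to 0.89). Mycn, which encodes N-MYC, was at 9.59 ± 1.29 and 10.5 ± 0.38 CPM with overlapping groups (0.13 ± 0.13, edgeR adjusted p = 0.45).

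Mxd1 encodes the founding MXD repressor, also called MAD1 (chromosome 6, 86647044 to 86669234). It had 55.0, 54.6 and 52.0 CPM in the controls and 88.0, 81.1 and 89.8 CPM in the inhibitor libraries. Every inhibitor library was well above every control. The mean rose 1.602-fold, from 53.9 ± 1.59 to 86.3 ± 4.61 CPM, a log2 change of 0.68 ± 0.06 (edgeR adjusted p = 6.08e-07), called in all 15 alternatives (0.58 to 0.72). In log2 units the rise of Mxd1 was close in size to the fall of Myc.

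Mxi1, also a MAX-binding repressor (chromosome 19, 53310128 to 53373293), had 36.1, 40.3 and 39.2 CPM in the controls and 46.4, 43.2 and 51.6 CPM in the inhibitor libraries. Its groups were separate, with inhibitor library 3 highest. The change was 0.29 ± 0.08 (edgeR adjusted p = 0.0103). It did not pass without inhibitor library 3 (0.22, edgeR adjusted p = 0.0673) or without control libraries 1 and 3 together (0.22, edgeR adjusted p = 0.0845), and over its alternatives the adjusted p ran from 0.00354 to 0.0845.

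Mxd4 encodes a repressor of the same family (chromosome 5, 34176580 to 34187710). Its levels were 24.1, 22.3 and 23.0 CPM in the controls and 28.6, 28.8 and 25.9 CPM in the inhibitor libraries. The groups stood apart by a narrow gap. The change was 0.27 ± 0.09 (edgeR adjusted p = 0.0249), and the call was lost without control library 2 (0.25, edgeR adjusted p = 0.0665), without control library 3 (0.27, 0.0663), without inhibitor library 1 (0.25, 0.0875) and without inhibitor library 2 (0.24, 0.0938). Mxd4 was higher in the inhibitor group in each of these, and the adjusted p ran from 0.00866 to 0.0938 over all its alternatives.

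Mxd3, the MXD gene most tied to dividing cells (chromosome 13, 55325170 to 55329900), was the lowest of the 9 in CPM. It had 15.7, 12.4 and 11.9 CPM in the controls and 14.1, 12.2 and 13.1 CPM in the inhibitor libraries, from 209 to 312 counts. The groups overlapped, and control library 1 was the highest of all 6. The change was -0.02 ± 0.13 (edgeR adjusted p = 0.915) and 0.11 without control library 1, so its direction is not established. Mxd3 shares 105 of its 1327 annotated exonic bases (7.91%) with Prelid1 on the opposite strand, which was at 237.0 CPM in the controls (change -0.02).

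Mnt encodes a broadly expressed MAX and MLX partner that represses MYC targets (chromosome 11, 74830806 to 74845725). It had 91.1, 81.6 and 83.7 CPM in the controls and 63.2, 64.1 and 55.9 CPM in the inhibitor libraries. Unlike the MXD genes that passed, Mnt went down, and without overlap. The mean fell from 85.4 ± 5.00 to 61.0 ± 4.49 CPM, a log2 change of -0.48 ± 0.07 (edgeR adjusted p = 6.03e-05), called in all 15 alternatives (-0.60 to -0.42).

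Mga encodes a very large protein with both a T-box and a MAX-binding domain (chromosome 2, 119872503 to 119970129). It had 174.9, 211.6 and 209.9 CPM in the controls and 204.9, 229.0 and 218.0 CPM in the inhibitor libraries. Control library 1 was the lowest and the groups overlapped. The change was 0.13 ± 0.07 (edgeR adjusted p = 0.17). Correction for GC content and length turned it to -0.09, and without control library 1 it was 0.04, neither past the threshold.

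Mlx encodes a dimer partner shared by MXD1, MXD4 and MNT and by the factors of the glucose-sensing branch (chromosome 11, 101086707 to 101092207). Its levels were 52.2, 46.7 and 47.5 CPM in the controls and 40.9, 38.1 and 43.6 CPM in the inhibitor libraries. All inhibitor libraries were lower, with a log2 change of -0.26 ± 0.08 (edgeR adjusted p = 0.015). It did not pass without inhibitor library 2 (-0.21, edgeR adjusted p = 0.0852) or without control libraries 1 and 3 together (-0.20, edgeR adjusted p = 0.125), and the adjusted p ran from 0.00248 to 0.125 over its alternatives. Mlx shares 385 of 1988 exonic bases (19.4%) with Psmc3ip on the opposite strand, which fell from 14.5 ± 2.13 to 10.8 ± 0.91 CPM. The strand of counting is not given, so reads from the shared bases cannot be told apart.

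Of the partners of MLX, Mlxip was at 135.4 ± 6.80 CPM in the controls and 123.7 ± 6.63 CPM in the inhibitor group. It did not pass (-0.13 ± 0.06, edgeR adjusted p = 0.0991), but it passed without control library 1 (-0.17, edgeR adjusted p = 0.00487), without control libraries 1 and 3 together (-0.20, edgeR adjusted p = 0.0183) and after the GC and length correction (-0.26, edgeR adjusted p = 0.000172). Mlxipl, with 3, 1 and 1 counts in the controls and 0, 1 and 3 in the inhibitor libraries, was at or under the detection limit.

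**Figure D2:**
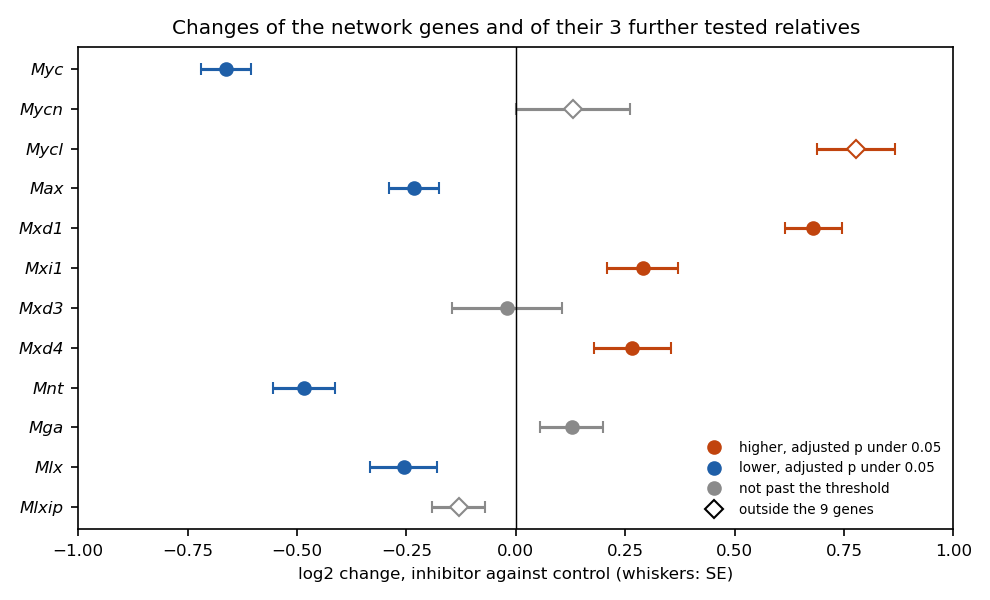
Log2 change of each gene in the inhibitor group against the control group on the x axis, with SE as whiskers. Filled circles are the 9 genes and open diamonds Mycn, Mycl and Mlxip. Myc (-0.66) and Mxd1 (0.68) lie farthest from 0 among the 9 and on opposite sides, and Mycl (0.78) lies on the side of Mxd1.

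Levels of different genes were compared per transcript length, as the deposited RPKM, which divides reads by transcript length and by a library total. In the controls Myc was highest (72.8 RPKM, from 71.1 to 75.3), then Max (52.0, 51.5 and 46.6 in the 3 libraries), Mlx (23.7 ± 1.59), Mxd4 (18.8 ± 0.80), Mnt (17.9 ± 1.11), Mxi1 (14.0 ± 1.14), Mga (13.7 ± 1.603), Mxd1 (11.1 ± 0.74) and Mxd3 (9.87 ± 1.56). The ranges of neighbours in this order overlapped for Mxd4 and Mnt, for Mxi1 and Mga and for Mxd1 and Mxd3. In the inhibitor group Myc was at 47.8 ± 2.29 and Max at 44.2 ± 1.19 RPKM. Mxd1 was the eighth of the 9 in the controls and the fifth in the inhibitor group, at 18.5 ± 0.99 RPKM, above Mga (15.6 ± 0.90) and Mnt (13.3 ± 0.95). There Mxd1 and Mxi1 (17.8 ± 1.63) overlapped. The deposited length of Mxd4 is 1179 bases and that of Mxi1 2639, against 3872 and 5036 for their longest coding transcripts in GENCODE, so their place in the order depends on the transcript model. With the GENCODE lengths Mxd1 was the sixth in the controls and the fourth in the inhibitor group, and Mxi1 (7.35 and 9.34) and Mxd4 (5.73 and 7.17) were the lowest in both.

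**Figure D3:**
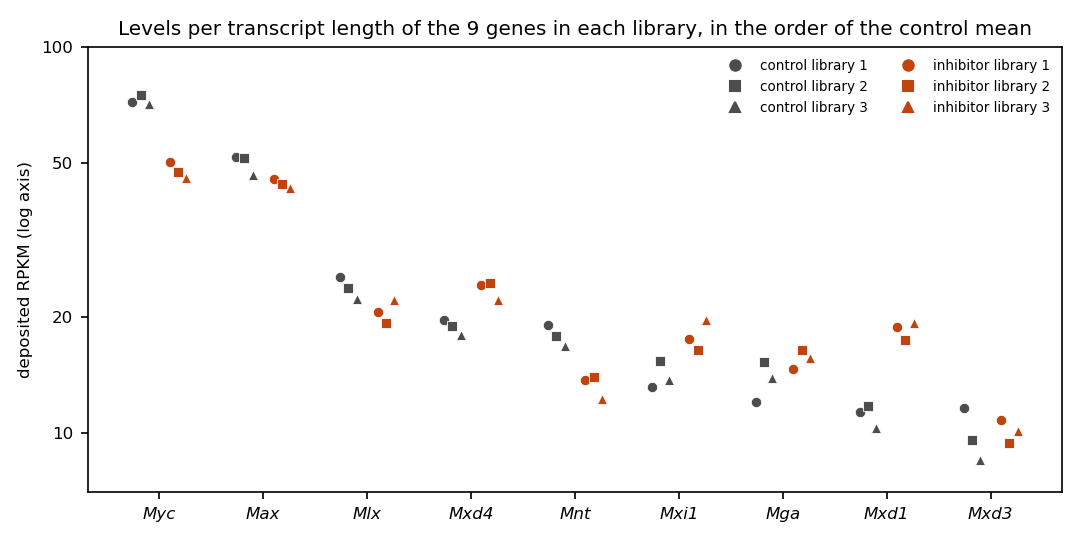
Deposited RPKM of the 9 genes in each library on a log axis, ordered by the control mean. Points are libraries. Myc comes down close to Max in the inhibitor libraries, and Mxd1 moves from 10.3 to 11.7 RPKM up to 17.4 to 19.3 RPKM.

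Ratios of levels within a library do not depend on how libraries were scaled, and are given as a description. The ratio of Myc to Max RPKM was 1.38, 1.46 and 1.53 in the controls and 1.11, 1.07 and 1.06 in the inhibitor libraries. Max transcripts were thus nearer in number to Myc transcripts in each inhibitor library. Myc was 6.36 to 6.92 times Mxd1 in the controls and 2.37 to 2.72 times in the inhibitor libraries. The RPKM of the 4 genes Mxd1, Mxd3, Mxd4 and Mxi1 together came to 0.74 ± 0.03 of that of Myc in the controls and to 1.47 ± 0.08 of it in the inhibitor libraries. With the deposited lengths their sum was above Myc in every inhibitor library, but with the longest GENCODE transcripts it was 0.45 ± 0.03 of Myc in the controls and 0.92 ± 0.06 in the inhibitor libraries, below Myc in all 6. Whether the sum passes Myc thus depends on the transcript lengths, while its share of Myc was higher in each inhibitor library with both. Myc against Mnt moved less, at 3.78 to 4.23 in the controls and 3.39 to 3.75 in the inhibitor libraries. With Mycn and Mycl added, the MYC family summed to 84.6 ± 3.86 RPKM in the controls and 66.5 ± 1.54 in the inhibitor group. The ratio of Myc to Mycl went from 8.92 ± 1.16 to 3.26 ± 0.29. RNA levels say nothing of the amounts of protein.

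Genes known to be induced by MYC were mostly lower. Over the 3 lists of such genes, 64 of 78 tested were called lower and 3 higher, and the median change was -0.32. Among all tested genes 20.1% were called lower and the median was -0.01. These lists, and those below, were chosen with earlier results of these data known, so the contrast is a description only. Of 34 ribosome biogenesis genes, edgeR called 33 lower and 0 higher, and Wdr12 alone did not pass (-0.15). Their median was -0.34. DESeq2 and limma-voom also called 0 higher, as did edgeR at an unadjusted p of 0.05. Ncl, which encodes the nucleolar protein nucleolin, had 1485, 1345 and 1435 CPM in the controls and 986.1, 1027 and 1013 CPM in the inhibitor libraries, a change of -0.49 ± 0.05. Nolc1, a nucleolar phosphoprotein gene, fell by 0.58 ± 0.06 on the log2 scale. Dkc1, the pseudouridine synthase of nucleolar RNPs, changed by -0.51 ± 0.06 and Rrp12, a ribosomal RNA processing factor, by -0.49 ± 0.07. The edgeR adjusted p of these 4 genes was at most 4.32e-05, and each kept its call in all 15 alternatives.

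Of 26 tested metabolic genes of the MYC programme, 17 were lower and Slc3a2 was higher, while 8 did not pass. Their median was -0.27. Pprc1, a coactivator of mitochondrial gene expression, changed by -0.61 ± 0.07, the mitochondrial chaperonin gene Hspd1 by -0.47 ± 0.05, the spermidine synthase gene Srm by -0.47 ± 0.06 and the lactate transporter gene Slc16a1 by -0.44 ± 0.06. These 4 kept their calls in all 15 alternatives. Slc3a2, a subunit of amino acid transporters, rose by 0.19 ± 0.06 (edgeR adjusted p = 0.0294), but leaving out control library 2 or 3 or any 1 inhibitor library ended its call (0.14 to 0.19, edgeR adjusted p = 0.0773 to 0.106).

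Among 18 cell cycle and translation genes, 14 were lower and 2 higher, while 2 did not pass. The median of the list was -0.37. The replication-linked genes Ung (-0.77 ± 0.09) and Cdc25a (-0.56 ± 0.06) and the RAN exchange factor gene Rcc1 (-0.52 ± 0.06) fell. Id2, which encodes an inhibitor of bHLH factors, went the other way, from 23.8 ± 0.79 to 52.8 ± 1.67 CPM (1.15 ± 0.08, edgeR adjusted p = 9.16e-09). The cyclin gene Ccnd2 rose slightly (0.15 ± 0.05, edgeR adjusted p = 0.0416). Its call was lost without control library 2 or any 1 inhibitor library (0.13 to 0.16, edgeR adjusted p = 0.0828 to 0.156), and it was at -0.02 after the GC and length correction.

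The E-box letters were found in 20 of the 81 matched promoter windows of these 3 lists: 7 of 30 for ribosome biogenesis, 8 of 32 for metabolism and 5 of 19 for cell cycle and translation. For all tested genes the share of windows was 9.91%. It was 12.7% for genes called lower, 7.70% for genes called higher and 9.75% for genes not called. Some of the stretches that hold the motif are printed with it in capitals, all from MYC-induced genes that fell. Of the other genes named above that fell, Ncl, Nolc1, Dkc1, Pprc1, Cdc25a, Ung and Rcc1 did not hold the letters in their windows. Rrp12 and Srm had no window. Eif4e held the letters but did not pass (-0.12). Hspd1 and Slc16a1 are named above, and Cdk4, chosen after its sequence was seen, held 4 E-boxes, 1 of which is shown.
Hspd1 (chr1:55088306-55088335, minus strand, motif at -80): ggccggctgggaCACGTGaaaaggccgcgc
Slc16a1 (chr3:104638452-104638481, plus strand, motif at -200): gcggcgccgggtCACGTGgcgggaaggggg
Cdk4 (chr10:127063405-127063434, plus strand, motif at -118): aagtcaaggggtCACGTGggatagcaacag
The G1 kinase gene Cdk4 had 436.4, 347.9 and 361.8 CPM in the controls and 275.7, 275.9 and 294.3 CPM in the inhibitor libraries, a change of -0.44 ± 0.08 (edgeR adjusted p = 0.000361). Whether MYC or another protein was bound at any of these places was not measured.

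Genes known to be repressed by MYC, listed together with the gene of its partner MIZ1 (Zbtb17), were mostly higher. Of 9 tested, Zbtb17 included, edgeR called 7 higher and 0 lower, against 20.4% and 20.1% of all tested genes. Gadd45b (0.19) and Zbtb17 itself (-0.10) did not pass. The median of the list was 0.44. Cdkn1a, the gene of the cyclin kinase inhibitor p21, had 85.2, 75.6 and 78.9 CPM in the controls and 187.7, 190.3 and 176.5 CPM in the inhibitor libraries. It rose by 1.21 ± 0.06, and the related inhibitor genes Cdkn2b (1.83 ± 0.24) and Cdkn1c (1.18 ± 0.15) rose from low levels of 1.27 and 5.76 CPM. The stress gene Gadd45a rose by 0.44 ± 0.11. The edgeR adjusted p of these 4 was at most 0.00589. Without control library 2, or without inhibitor library 2, 4 of the 9 were higher. DESeq2 and limma-voom also called 0 of them lower, as did edgeR at an unadjusted p of 0.05.

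Targets of MLX with MondoA were higher in part. Of 4 tested, 3 were higher, against 20.4% of all tested genes, and Arrdc4 did not pass (-0.30 ± 0.13, edgeR adjusted p = 0.0787). The median was 0.73. Txnip, the thioredoxin inhibitor that MondoA induces, had 133.6, 134.9 and 137.9 CPM in the controls and 314.4, 325.3 and 318.0 CPM in the inhibitor libraries. The 6 values formed tight and well separated groups, with a change of 1.24 ± 0.05 (edgeR adjusted p = 5.96e-11). Klf10, a zinc finger factor gene, rose by 0.79 ± 0.07 and Pfkfb3, a regulator of glycolysis, by 0.67 ± 0.05, while Mlx fell and Mlxip did not pass. Arrdc4 was called lower without control libraries 1 and 3, after thinning to the smallest total count and after the GC and length correction.

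**Figure D4:**
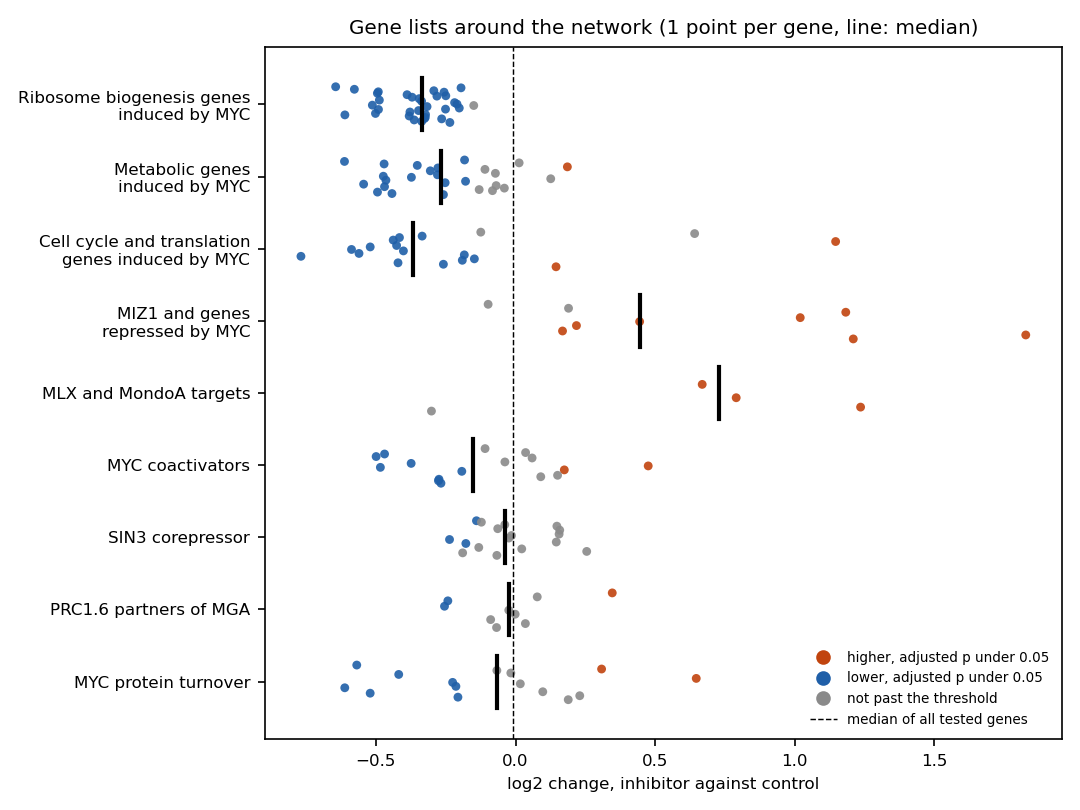
Log2 change of each tested gene in 9 lists around the network, 1 point per gene, coloured by call at an adjusted p of 0.05, with the list median as a black line and the median of all tested genes (-0.01) as a dashed line. The 3 lists of MYC-induced genes have medians of -0.34, -0.27 and -0.37. The list of MIZ1 and MYC-repressed genes and that of the MLX targets have medians of 0.44 and 0.73.

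Genes of the proteins that MYC and its rivals work through were counted in the same way. Among all tested genes 20.1% were called lower and 20.4% higher. Of 16 MYC coactivators tested, 8 were lower and 2 higher, while 6 did not pass. Their median was -0.15, and -0.23 after the GC and length correction. The helicase genes Ruvbl1 (-0.48 ± 0.08) and Ruvbl2 (-0.47 ± 0.07), the elongation factor cyclin gene Ccnt1 (-0.50 ± 0.07) and Wdr5, which anchors MYC to chromatin (-0.37 ± 0.06), fell (edgeR adjusted p at most 0.00027). The acetyltransferase gene Crebbp rose (0.48 ± 0.11, edgeR adjusted p = 0.00556). Crebbp did not pass after the GC and length correction (0.28). The number called higher was 1 without inhibitor library 1 or 2 and 0 after that correction.

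The SIN3 corepressor, which MXD proteins and MNT recruit, showed few calls, against 40.5% of all tested genes called, 20.1% lower and 20.4% higher. Of 17 tested genes edgeR called 3 lower and 0 higher, and 14 did not pass. Their median was -0.04, but -0.11 after the GC and length correction and -0.0043 without control library 1. The scaffold genes Sin3a and Sin3b were at 0.02 and -0.01. DESeq2 and limma-voom likewise called 0 higher, while 1 gene was higher at an unadjusted p of 0.05. Also 1 was called higher without control library 2, without inhibitor library 2, with a stricter filter and after the GC and length correction. The 3 that fell were Sap30 (-0.24 ± 0.07) and the histone-binding genes Rbbp7 (-0.18 ± 0.06) and Rbbp4 (-0.14 ± 0.05). These calls are not stable: Rbbp4 lost its call in 9 of 15 alternatives, RLE size factors and both other filters among them, Rbbp7 in 4 and Sap30 in 2. The number lower was 1 without control library 3, 1 without inhibitor library 1, 0 without inhibitor library 2, 1 without control libraries 1 and 3 together and 8 after the GC and length correction.

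The next lists are also read beside the 20.1% of all tested genes called lower and the 20.4% called higher. For the Polycomb complex that holds MGA, 2 of 9 partner genes were lower and 1 was higher, while 6 did not pass. The median was -0.02, and -0.07 without inhibitor library 1. Yaf2 rose (0.35 ± 0.07) and Tfdp1 (-0.25 ± 0.05) and L3mbtl2 (-0.24 ± 0.07) fell. Without control library 1, and after the GC and length correction, 4 were lower, and without inhibitor library 1, 1 was. Pcgf6 and E2f6, which mark this complex, did not pass (0.04 and -0.00). Of 15 genes that set the stability of MYC protein, 7 were lower and 2 higher, while 6 did not pass. Here the median was -0.07, but -0.0064 without inhibitor library 2, -0.11 without inhibitor library 3, -0.12 without control libraries 1 and 3 together and -0.17 after the GC and length correction. The kinase genes Pim1 (0.65 ± 0.07) and Gsk3b (0.31 ± 0.06) rose and Pim2 (-0.57 ± 0.10), the deubiquitinase gene Usp36 (-0.52 ± 0.07) and the ubiquitin ligase gene Skp2 (-0.42 ± 0.07) fell. Without inhibitor library 3, 4 of the 15 were lower. Fbxw7, the ligase gene best known for MYC turnover, was at 25.1 ± 1.70 and 29.5 ± 2.16 CPM (0.23 ± 0.09, edgeR adjusted p = 0.0564).

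Genes of immediate early response, which cell dissociation also induces and to which Myc is often counted, were mostly higher. Of 20 tested, 13 were higher and 1 lower, against 20.4% and 20.1% of all tested genes, while 6 did not pass. The median was 0.54, and the summed level was 1009 to 1094 CPM in the controls and 1705 to 1826 CPM in the inhibitor libraries. Fos (1.33 ± 0.07), Fosb (1.33 ± 0.09), Egr1 (1.27 ± 0.08) and Dusp1 (1.96 ± 0.11) rose. Klf4 fell (-0.23 ± 0.08), but not past the threshold without control library 2 or 3 or any 1 inhibitor library (-0.25 to -0.19).

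Marker genes of several blood cell types moved with these results, and none of the lists below had a gene at 0 in all 6 libraries. Beside the counts below, 20.4% of all tested genes were called higher and 20.1% lower. All 10 megakaryocyte markers were higher, with a summed level of 1871 to 2143 CPM in the controls and 4362 to 4475 CPM in the inhibitor libraries (Pf4 1.40 ± 0.06). Of 10 monocyte and macrophage markers 4 were lower and 1 higher, and the median change was -0.07. Their summed level was 3677 to 3768 CPM in the controls and 2271 to 2338 CPM in the inhibitor libraries, mostly through Lyz2 (2243 to 1103 CPM) and Ly6c2 (546.7 to 285.6 CPM), while Csf1r (0.05), Ccr2 (0.00) and Adgre1 (-0.00) did not pass. The neutrophil markers went both ways. The primary granule genes Mpo (-0.27 ± 0.05), Elane (-0.41 ± 0.05), Prtn3 (-0.39 ± 0.08) and Ctsg (-0.44 ± 0.09), which are made early in granulocyte maturation, fell. The later genes S100a8 (1.62 ± 0.06), S100a9 (1.63 ± 0.08), Ngp (1.66 ± 0.10), Camp (1.69 ± 0.43) and Ltf (0.71 ± 0.13) rose from lower levels, between 0.58 and 40.3 CPM in the controls. The median of these 9 genes was 0.71, whereas their summed level, 6437 to 7295 CPM in the controls and 5720 to 5868 CPM in the inhibitor libraries, was mostly Mpo. The lymphoid markers, with 5 of 6 tested lower, summed to 47.7 to 51.6 and 29.6 to 32.1 CPM, and the erythroid ones, with 4 of 6 higher, to 12.4 to 13.8 and 25.2 to 27.0 CPM. For dendritic cells (3 of 10 higher, 3 lower) the sums were 1277 to 1435 and 1568 to 1612 CPM, for mast cells and basophils (3 of 10 higher, 3 lower) 1493 to 1551 and 1646 to 1721 CPM, and for HSCs (3 of 11 higher, 2 lower) 1039 to 1072 and 1097 to 1144 CPM. The part of these shifts in the changes of Myc, Mxd1, Mnt and the MYC-induced genes was not tested.

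The genes whose profiles over the 6 libraries were most like those of Myc and Max were taken by the smallest Euclidean distance between centred log2 CPM values, among 12832 genes with a mean of at least 10 counts. For Myc these were Stard4 (distance 0.0528), Sdc4 (0.0743), Zbtb26 (0.0818) and Arhgap26 (0.0948), where the median gene lay at 0.871. For Max they were Rad23b (0.029), Pepd (0.0363), Retreg3 (0.0375) and Psma6 (0.038), with a median of 0.459. A distance over 6 libraries of 2 groups mostly reflects the difference between the groups.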

How the data were processed

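RNA of GFP+ cells (Trizol, mRNA kit, per the labels) had been sequenced as 6 libraries. The deposited tables give read counts per RefSeq symbol, not normalised, per the file headers, and RPKM, which the authors computed per longest transcript and a library total. That total exceeded the summed counts by 0.22 to 8.68%. Per the submitters' processing notes, reads were made with bcl2fastq 2.20 and the build was mm10. No source used here gives the aligner, the counter or the strand.

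Genes passing edgeR's filterByExpr (minimum count 10, minimum total 15) entered the robust quasi-likelihood test of edgeR 4.0.16 (R 4.3.3) after TMM scaling, whose factors ran from 0.985 to 1.008 (Benjamini-Hochberg adjusted p under 0.05). Same-group libraries differed beyond counting noise (chi-square per degree of freedom 7.55 to 16.8 among the controls, 3.04 to 4.24 among the inhibitor libraries). No pair was thus taken for a repeat deposit of 1 library, and each was used as a replicate as labelled. This does not show that they are independent. Counting floors cover counting error only. RPKM served levels between genes.

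The members and gene lists were chosen with earlier results of these data known. Named genes are the members and relatives, the 4 smallest p-values past the threshold of each list, up to 2 in the opposite direction, and up to 3 most abundant markers per list. Some marker genes taken by this rule are given only within their sums, and others outside it are named where a list leaves them over. Of the genes taken by this rule, 1 is not reported here. Promoter windows came from RefSeq (24933 symbols matched by accession, 42 by symbol, 58 not), 3′ UTRs from GENCODE M21 (24264, 435 and 334).

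The fit was tested on simulated data, with 50 genes changed at each of 4 sizes. It recovered 13 of those changed 1.25-fold, 39 at 1.5-fold, 45 at 2-fold and 47 at 4-fold, and called 5 unchanged genes. The share of genes changed there was far below the 40.5% called in the data, so the cut-off in p was stricter. The numbers recovered therefore do not give the share that the fit would find in the data. A gene that did not pass may still differ by a small amount. Alternatives were RLE factors, 2 other filters, a replicate block, DESeq2 1.42.0, limma-voom (limma 3.58.1), thinning, leaving out libraries and an adjusted p of 0.1. The loess correction for GC content and length (span 0.4; 12914 genes had values) and levels with GENCODE transcript lengths were added after seeing the data.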

Additional observations from a re-analysis of the deposited data

How the results depend on the processing

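The calls of Myc, Max, Mxd1 and Mnt held in all 15 alternatives. Those of Mxd4, Mxi1 and Mlx rest on small changes and were lost in 4, 2 and 2 of them. Without 1 library, Mxd4 ran from 0.24 to 0.32, Mxi1 from 0.22 to 0.35, Mlx from -0.30 to -0.21 and Mxd3 from -0.0911 to 0.11. Without control libraries 1 and 3, Mxi1 was at 0.222, Mlx at -0.197 and Mxd3 at 0.0813. Mxd3 was at 0.0152 after thinning and 0.0812 after the GC and length correction, which took Mga to -0.0865, Ccnd2 to -0.0169 and the genes called lower to 4106 of 12978. The cause was not tested. The mean control level of Myc was 75.8 per kilobase with TMM scaling, against 72.8 RPKM, since the authors' library totals exceed the summed counts. With GENCODE transcript lengths, chosen after seeing the data, the control and inhibitor levels were 53.8 and 47.6 for Max, 5.73 and 7.17 for Mxd4 and 7.35 and 9.34 for Mxi1, and the summed MXD genes came to 0.453 and 0.916 of Myc. With the replicate number as a block, 2831 genes were higher and 2842 lower, and of the members 3 and 4. The numbers are not shown to pair libraries: deviations of same-numbered libraries correlated at 0.0576, 0.00818 and 0.0366, and control library 2 correlated best with another number. The number of MYC-induced genes called lower ran from 58 to 69 over all alternatives. Those called higher (3) were 1 without control library 2 or any 1 inhibitor library. In single lists, the metabolic genes called higher (1) were 0 to 2 and those of cell cycle and translation (2) were 1 in 7 alternatives. MLX targets called lower were 1 in 4 alternatives against 0. Each member had 209 or more counts in each library, and Mlxipl was at or under the detection limit.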

Other observations

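Some well-known targets of the network did not follow their lists, and they were picked here after their values were seen. Odc1, which encodes ornithine decarboxylase and is among the classic MYC-induced genes, had 252.4, 239.2 and 245.5 CPM in control libraries 1 to 3 and 262.3, 257.2 and 285.1 CPM in inhibitor libraries 1 to 3. It was higher in every inhibitor library but did not pass (0.13 ± 0.06, edgeR adjusted p = 0.0862), while Srm, the next enzyme of polyamine synthesis, fell. Arrdc4, the arrestin-domain gene usually named beside Txnip as a MondoA and MLX target, had 11.1, 12.6 and 9.97 CPM in the controls and 9.24, 9.75 and 8.33 CPM in the inhibitor libraries, while Txnip rose. Among the MLX targets that rose, 1 promoter window of Pfkfb3 held the E-box letters (at -53), that of Txnip did not and Klf10 had no window. The Arrdc4 window held the letters too, at -193 from its start site.
Arrdc4 (chr7:68749414-68749443, minus strand): aaaggtcctgtgCACGTGcactatggtgtc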
